A study of Mus musculus with 2 samples.

Results

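The genes described here encode 9 surface receptors of mouse natural killer (NK) cells: Klrk1 (NKG2D), Klrc1 (NKG2A), Klrc2 (NKG2C), Klrd1 (CD94), Klre1, Klrb1c (NK1.1), Ncr1 (NKp46), Cd226 (DNAM-1) and Cd160. They were taken by gene symbol from the deposited matrix, which held all 9 among its 31053 genes. The study profiled CD45-positive leukocytes by droplet sequencing of the 3′ ends of transcripts in single cells. They came from tumours grown under the skin from MTC-Q1, an oral cancer line of the mouse. In 1 group the tumours grew from MTC-Q1 cells with miR-21 knocked out (miR-21 KO), and in the other from unmodified MTC-Q1 cells (WT). Both groups shared the C57BL/6 host, 2 weeks of tumour growth and 1 cisplatin dose of 5 mg/kg given 72 hours before harvest, so no untreated tumour is among them. Only the tumour cells carried the deletion, and the leukocytes belonged to the host. The labels do not say how many mice or knockout clones stand behind a library.

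NK cells kill stressed or transformed cells according to the balance of activating and inhibitory receptors on their surface, and many of these receptors also appear on T cells after activation. Most of the 9 are C-type lectin-like proteins encoded side by side in the NK gene complex. NKG2D is an activating receptor for stress-induced ligands and signals through the adaptor DAP10, and in mice also through DAP12. CD94 pairs with NKG2A to form an inhibitory receptor and with NKG2C to form an activating one, and both recognise the nonclassical class I molecule Qa-1. KLRE1 pairs with KLRI1 or KLRI2. NK1.1 and NKp46 are activating receptors that use the FcR gamma adaptor. DNAM-1 binds CD155 and CD112, and CD160 binds HVEM and class I molecules.

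Barcodes in the single deposited matrix end in 1 or 2, and no source used here ties these endings to the groups. Cells are therefore described as library 1 and library 2, and differences between them carry no direction between miR-21 KO and WT. With 1 library per group no difference was tested. All intervals are at the 95% level and take in counting error alone. Library 1 held 5320 barcodes and library 2 held 7194, with medians of 7169 and 15247.5 unique molecular identifiers (UMIs), and 8 barcode sequences occur in both. After filtering, 4979 and 6743 cells were kept. Levels are given as CPM, that is, UMIs of a gene per 1000000 UMIs summed over all cells of a type. These are counts of 3′ ends, so levels are compared between cell types and not between genes.

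Cells were assigned to types by summed UMIs of marker lists that hold none of the 9 receptors. The NK gate required at least 20 UMIs of 13 NK genes and at most 1 UMI of the CD3 genes. It held 142 cells in library 1 and 934 in library 2, with the NK list at 8587 and 7999.9 CPM and CD3 genes at 8.79 and 9.73 CPM. A myeloid list that includes Fcgr3, which NK cells also use, stood at 341 and 552 CPM in it. T cells with at least 8 UMIs of the adaptor genes Fcer1g and Tyrobp, which most T cells lack, are called innate-type T cells and numbered 95 and 725. Non-naive CD8 T cells numbered 99 and 328, and T cells with gamma-delta receptor chains and a type 17 list 21 and 63. Activated CD4 T cells numbered 77 and 28, and regulatory T cells 83 and 28. The activated CD4 gate asked for at least 1 Cd4 UMI, no CD8 UMI and fewer than 5 UMIs of a naive-cell list. It asked for no activation gene, so its name is not borne out by a marker. The share of its cells in the cell cycle was 3.90% in library 1 and 32.1% in library 2. In library 1 its Tcf7 level was 299 CPM, beside 303 CPM in CD8 T cells that passed the naive-cell list. CD8 T cells with at least 5 UMIs of a naive-cell list numbered 1256 and 99. In library 2 that gate goes against its name: the share of its cells in the cell cycle was 2.07% in library 1 and 53.5% in library 2, and it is called the naive-list CD8 gate. T cells of no narrower gate, 947 and 134, are called other T. These 8 types were ranked, and the CD4 gate with naive genes was left out because library 2 held 5 such cells.

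The 5 genes Klre1, Klrd1, Klrk1, Klrc2 and Klrc1 lie within 101 kb on chromosome 6, from position 129577905 to 129678973 of mm10. Klre1 (129577905 to 129585827) and Klrd1 (129591782 to 129598775) are transcribed from the plus strand, and Klrk1 (129610323 to 129623864), Klrc2 (129647496 to 129660689) and Klrc1 (129666015 to 129678973) from the minus strand. Klrb1c lies on the minus strand of the same chromosome at 128778485 to 128789215, 789 kb before that block. Ncr1 lies on chromosome 7 at 4337724 to 4345164 and Cd160 on chromosome 3 at 96798763 to 96829351. The 3′ sequence of Klrc1 is shared with a near copy: 254 of the 451 windows of 50 bases in the last 500 bases of its longest coding transcript also occur in transcripts of Klrc2, so the counts of Klrc1 and Klrc2 are uncertain where reads fell in the shared part. None of those windows was shared for the other 7 receptors or for the longest coding transcript of Klrc2. Klrb1c overlaps Gm44511 on the same strand, so its counts are uncertain too.

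Promoter windows of 7 of the 9 receptors, taken from RefSeq (GRCm38.p6) as 250 bases before to 50 bases after a start site, were searched on both strands for 4 short motifs: GGTGTGA (T-box), TGTGGT (RUNX), GGAAGT (ETS) and TGANTCA (AP-1). TGTGGT occurred in 10 of their 11 windows and for 7 of 7 genes, against 16.9% of 27025 mouse promoter windows, 1 per gene. The 11 windows are not separate: those of Ncr1, of Klrc2 and of Klre1 overlap, and the same TGTGGT matches of Ncr1 and Klrc2 lie in both windows of each. GGTGTGA occurred for 1 of the 7 genes, against 3.96% of all windows, GGAAGT for 2, against 24.1%, and TGANTCA for 2, against 7.93%. A receptor gene counted if any of its listed windows matched, while the background took the first listed window alone. The GGTGTGA match and the GGAAGT match of Cd160 lie in its second window only, so these counts follow a wider rule than the background. A match is a description of these letters and not a binding site. The windows of Klrk1, Klrc1, Ncr1 and Cd160 are shown because these genes carry the main contrasts below, and capitals mark matches to any of the 4 motifs. They run 5′ to 3′ on the gene's own strand, at chr6:129623815-129624114 (minus), chr6:129678924-129679223 (minus), chr7:4337465-4337764 (plus) and chr3:96814472-96814771 (minus).
Klrk1: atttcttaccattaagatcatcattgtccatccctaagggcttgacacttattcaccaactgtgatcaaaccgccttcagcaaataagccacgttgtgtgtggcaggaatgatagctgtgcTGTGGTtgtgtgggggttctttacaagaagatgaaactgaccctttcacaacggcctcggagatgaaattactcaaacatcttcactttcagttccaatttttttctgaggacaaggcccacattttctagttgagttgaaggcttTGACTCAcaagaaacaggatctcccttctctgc
Klrc1: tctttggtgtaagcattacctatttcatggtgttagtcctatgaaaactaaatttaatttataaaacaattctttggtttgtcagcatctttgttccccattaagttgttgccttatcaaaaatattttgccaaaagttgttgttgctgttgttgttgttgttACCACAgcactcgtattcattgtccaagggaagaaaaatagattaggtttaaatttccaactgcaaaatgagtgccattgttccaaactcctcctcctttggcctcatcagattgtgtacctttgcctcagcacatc
Ncr1: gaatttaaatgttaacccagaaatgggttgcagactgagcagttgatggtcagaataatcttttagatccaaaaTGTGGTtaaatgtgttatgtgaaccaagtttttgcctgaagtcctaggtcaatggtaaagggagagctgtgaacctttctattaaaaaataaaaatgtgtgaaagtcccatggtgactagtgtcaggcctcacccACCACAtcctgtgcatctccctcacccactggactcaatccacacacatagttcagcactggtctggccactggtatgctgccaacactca
Cd160: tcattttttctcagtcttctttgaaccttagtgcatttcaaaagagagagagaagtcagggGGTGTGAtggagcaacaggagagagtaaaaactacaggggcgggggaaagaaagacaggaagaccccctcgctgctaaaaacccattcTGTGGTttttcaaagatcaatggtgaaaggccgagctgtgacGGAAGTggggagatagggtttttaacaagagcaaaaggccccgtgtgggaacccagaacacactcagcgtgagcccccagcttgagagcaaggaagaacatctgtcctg
The RUNX letters lie on the gene's strand in Klrk1 and Cd160, on the opposite strand in Klrc1, and once on each strand in Ncr1. The T-box and ETS letters were both found in the Cd160 window shown, which is the second listed for this gene, and neither was found in its first.

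The NK gate had the highest level of 7 of the 9 receptors in library 1 and of 5 in library 2. Klrk1, Klrd1, Klre1, Klrb1c and Ncr1 were highest there in both libraries, and in no T cell type did the interval of any of these 5 genes reach that of the NK gate. Klrc1 and Klrc2 were highest in NK-gated cells of library 1 only, while Cd226 and Cd160 were higher in innate-type T cells than in NK-gated cells of both libraries.

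**Figure D1:**
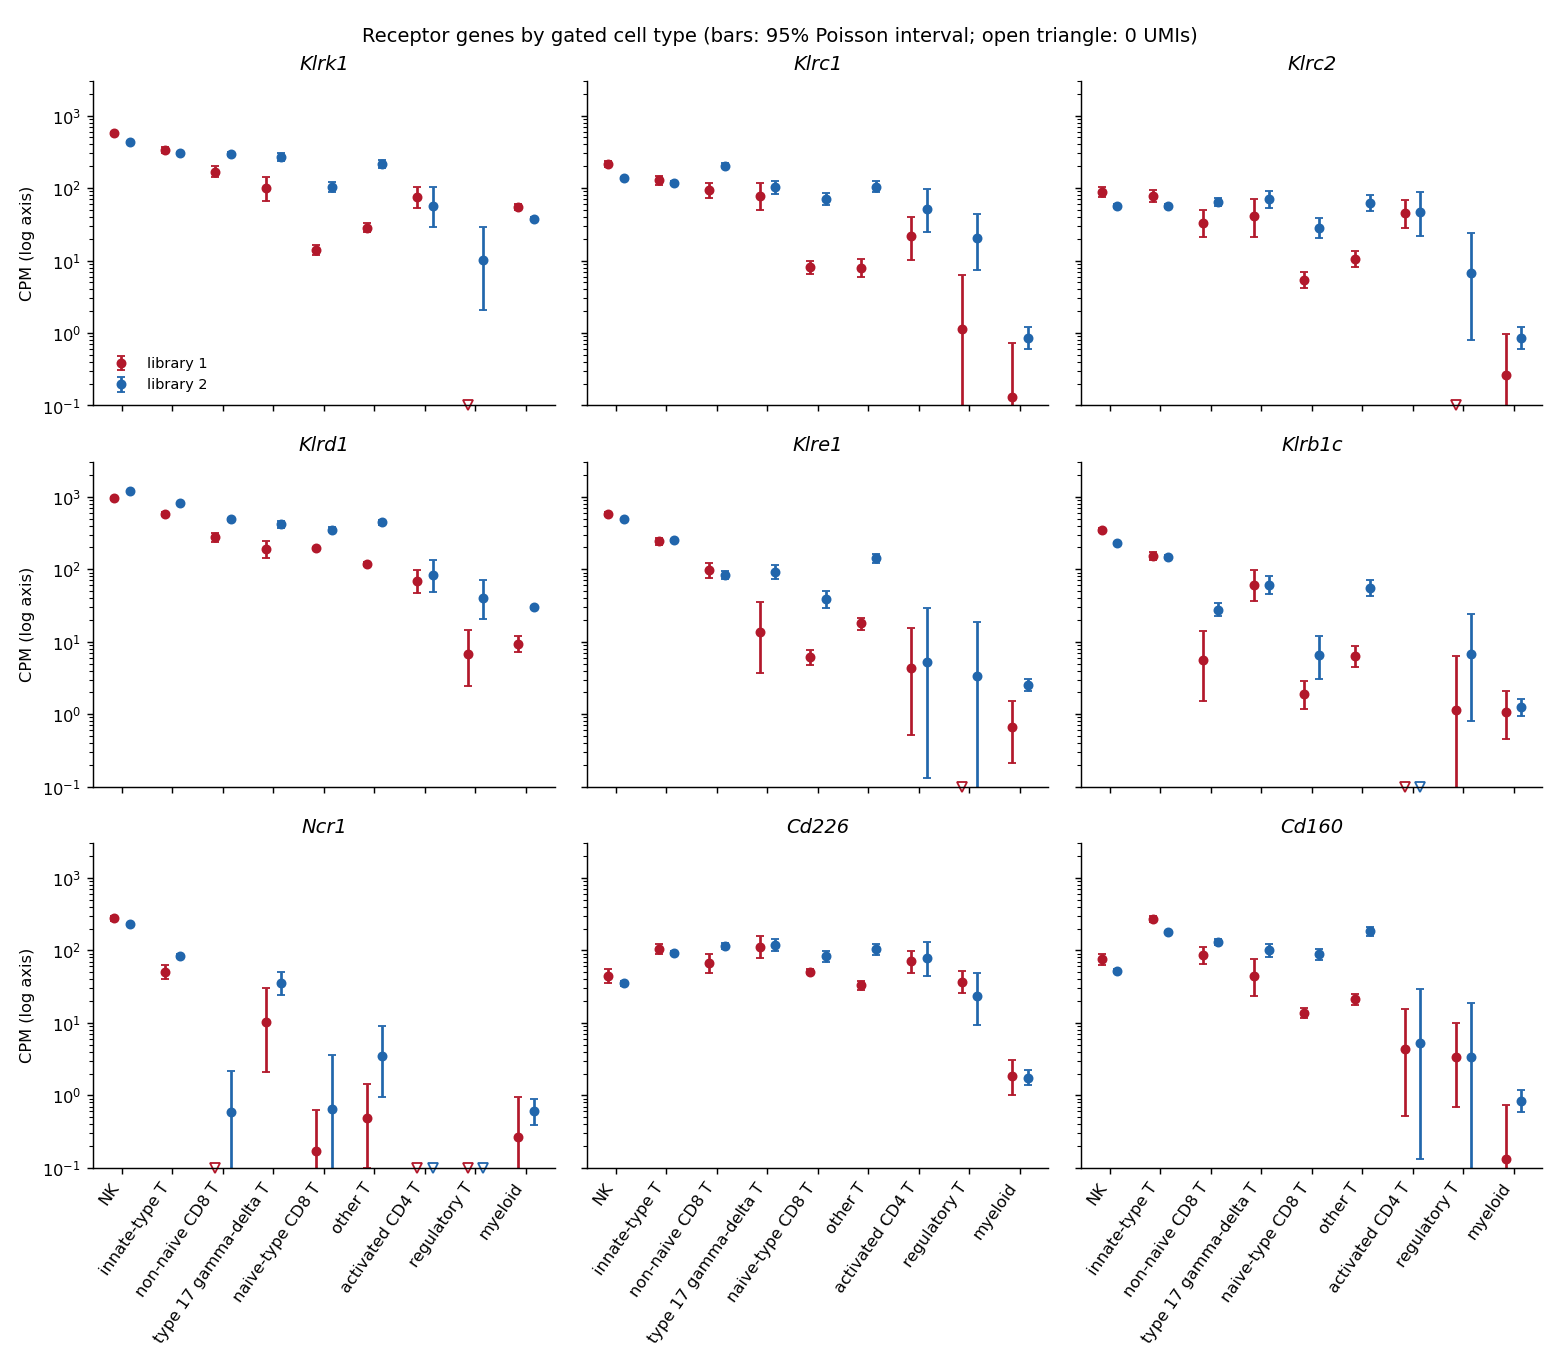
Level of each receptor gene in CPM (log axis) in each gated cell type, from NK on the left to the myeloid gate on the right, in library 1 (red) and library 2 (blue). Points are CPM of the summed cells, bars are exact 95% Poisson intervals, and an open triangle at the lower edge marks 0 UMIs; Ncr1 stood at 277 and 229 CPM in the NK gate and at 0 and 0.597 CPM in non-naive CD8 T cells.

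Ncr1 had few or no counts in CD8, activated CD4 and regulatory T cells. NK-gated cells had 277 CPM (254 to 300.3) and 229 CPM (222 to 236) in libraries 1 and 2, and 91.5% and 89.2% of them had a UMI. Innate-type T cells had 50.9 CPM (40.2 to 63.6) and 84.5 CPM (79.4 to 89.9). NK-gated cells thus had 5.43 times (4.27 to 6.98) and 2.71 times (2.53 to 2.91) the innate-type T level. In non-naive CD8 T cells no Ncr1 UMI was seen among 99 cells of library 1, where the interval reaches 5.11 CPM, and 2 UMIs among 328 cells of library 2. With that 0 set to 3 counts, 4.15 CPM, the NK level of library 1 was 66.6-fold higher. The interval of this ratio begins at 53.9-fold. Activated CD4 and regulatory T cells had no Ncr1 UMI in either library. T cells with type 17 genes followed the innate-type T cells in both libraries, at 10.2 CPM (2.11 to 29.9) from 3 UMIs and 35.2 CPM (23.9 to 49.9) from 31 UMIs.

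Within innate-type T cells, Ncr1 was lower in cells with CD8 genes. It stood at 30.5 CPM in CD8-positive cells and 61.8 CPM in CD8-negative cells of library 1, and at 36.9 and 113 CPM in library 2. The log2 difference, CD8-positive over CD8-negative, was -1.02 (-1.91 to -0.21) in library 1 and -1.61 (-1.86 to -1.36) in library 2. Along the same split Klrk1 differed by -0.45 and -0.24 and Klrd1 by -0.41 and -0.25 on the log2 scale.

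Klrb1c, the gene of the NK1.1 antigen that marks NK cells in C57BL/6 mice, was shared by NK-gated and innate-type T cells. It stood at 346 CPM (321 to 373) and 231 CPM (224 to 239) in NK-gated cells, and at 151 CPM (132 to 172) and 149 CPM (142 to 156) in innate-type T cells. In non-naive CD8 T cells it stood at 5.54 CPM from 4 UMIs in library 1 and at 27.8 CPM from 93 UMIs in library 2. T cells with type 17 genes had intermediate levels, 61.3 CPM (36.3 to 96.9) and 61.2 CPM (46.0 to 79.9). No Klrb1c UMI was found in activated CD4 T cells.

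Klre1 had 579 CPM in NK-gated cells and 243 CPM in innate-type T cells of library 1, and 488 and 250.02 CPM in library 2. Non-naive CD8 T cells had 96.9 and 83.0 CPM, that is, NK-gated cells had 5.97 times (4.69 to 7.71) and 5.88 times (5.22 to 6.65) that level. Of its known partners, Klri2 stood at 151 and 87.4 CPM in NK-gated cells, where it is itself a gate gene, and Klri1 at 1.47 and 2.66 CPM, from 3 and 43 UMIs.

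Klrk1, the NKG2D gene, fell in the order NK, innate-type T and non-naive CD8 T in both libraries. Its levels in library 1 were 569 CPM (537 to 603) in NK-gated, 338 CPM (309 to 368) in innate-type T and 169 CPM (140.3 to 202) in non-naive CD8 T cells. The corresponding levels in library 2 were 432, 306 and 291 CPM, and the intervals of the last pair overlap. Regulatory T cells had no Klrk1 UMI in library 1 and 3 in library 2. After each cell was thinned to 4000 UMIs, 89.4% (83.2 to 94.0%) and 81.6% of NK-gated cells had a Klrk1 UMI. Without thinning the shares were 100% and 98.9%.

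Klrd1, the CD94 gene, was also counted in CD8 T cells. It stood at 958 CPM (916 to 1001) and 1195 CPM (1178 to 1212) in NK-gated cells and at 579 and 815 CPM in innate-type T cells. Non-naive CD8 T cells had 278 and 490.2 CPM, and the naive-list CD8 gate 195 and 353 CPM. In that last gate 50.2% and 68.7% of thinned cells had a Klrd1 UMI, while Klrc1 was found in 1.35% and 22.2%. More of its cells thus had a Klrd1 than a Klrc1 UMI at this depth in both libraries. This describes detection only, as the Klrc1 counts are uncertain in the 3′ part shared with Klrc2.

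Klrc1, the inhibitory partner of CD94, was not confined to NK-gated cells. It stood at 215 CPM (196 to 237) in NK-gated, 129 CPM (111 to 148) in innate-type T and 92.8 CPM (71.9 to 118) in non-naive CD8 T cells of library 1. In library 2 the order turned, with 139 CPM (133 to 144) in NK-gated, 117 CPM (111 to 123) in innate-type T and 203 CPM (188 to 219) in non-naive CD8 T cells. The non-naive CD8 gate held unlike cells in the 2 libraries, with 9.09% and 41.8% of them cycling. Klrc1 stood at 79.4 and 180 CPM in those outside the cell cycle. The part of cell state in this order was not tested. In the thinned cells of library 2, a Klrc1 UMI was found in 35.7% (32.6 to 38.8%) of NK-gated and 46.0% (40.5 to 51.6%) of non-naive CD8 T cells.

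Klrc2 had like levels in NK-gated and innate-type T cells, 88.4 and 78.7 CPM in library 1 and 56.2 and 56.7 CPM in library 2. The log2 difference, NK over innate-type T, was 0.17 (-0.17 to 0.51) and -0.01 (-0.16 to 0.13), and both intervals hold 0. In library 2 its highest level, 70.3 CPM (53.9 to 90.1) in T cells with type 17 genes, overlapped those of NK-gated, non-naive CD8, other and innate-type T cells. Klrc3, the remaining NKG2 gene of the cluster, had 4 and 22 UMIs in NK-gated cells.

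Cd226 and Cd160 were lower in NK-gated than in innate-type T cells. Cd226, on chromosome 18 at 89176967 to 89272229, stood at 44.5 CPM (35.8 to 54.6) and 35.2 CPM (32.4 to 38.3) in NK-gated cells, against 106 CPM (90.0 to 124) and 92.6 CPM (87.2 to 98.2) in innate-type T cells. In regulatory T cells Cd226 stood at 37.1 CPM in library 1 and at 23.5 CPM from 7 UMIs in library 2. Klrd1 stood there at 6.75 CPM in library 1 and at 40.3 CPM from 12 UMIs in library 2. The highest Cd226 level was in T cells with type 17 genes, 112 CPM (77.4 to 158) and 120.2 CPM (98.4 to 145), which overlapped innate-type T cells in library 1 and non-naive CD8 T cells in library 2.

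Cd160 stood at 75.2 CPM (63.8 to 88.1) and 52.2 CPM (48.7 to 55.8) in NK-gated cells and at 271 CPM (245 to 299) and 179 CPM (172 to 187) in innate-type T cells. The NK level was 0.278 times (0.229 to 0.335) and 0.291 times (0.268 to 0.315) the innate-type T level. In library 2 the other T gate, 184 CPM (159 to 210.3), overlapped the innate-type T cells, and non-naive CD8 T cells followed with 132 CPM. Within the innate-type gate, Cd160 stood at 320.4 CPM in cells with gamma-delta chains and 229 CPM in cells without in library 1, and at 204 and 162 CPM in library 2.

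**Figure D2:**
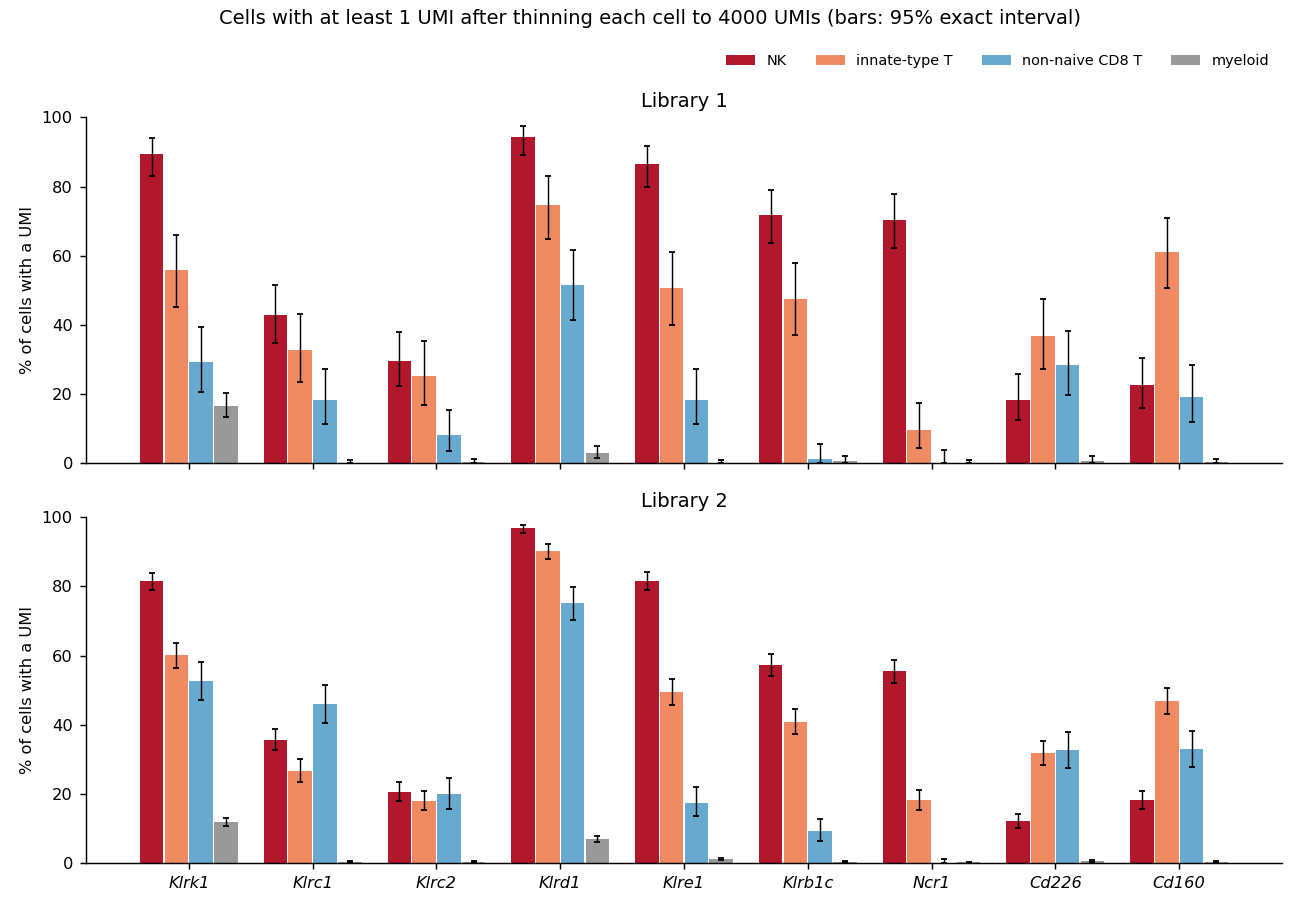
Share of cells with at least 1 UMI of each receptor after each cell was thinned to 4000 UMIs, in library 1 (top) and library 2 (bottom), for NK-gated (red), innate-type T (orange), non-naive CD8 T (blue) and myeloid cells (grey). Bars start at 0 and whiskers are exact 95% binomial intervals; Cd160 is the gene whose innate-type T share, 61.1% and 46.9%, lies farthest above its NK share, 22.5% and 18.1%.

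The receptors were seen together in single cells. Thinned NK-gated cells had UMIs of a median of 5 of the 9 receptors in both libraries, and no cell had none. Innate-type T cells had a median of 4 in both, non-naive CD8 T cells 1 in library 1 and 3 in library 2, and myeloid cells 0. At least 5 receptors were seen in 75.4% and 51.9% of NK-gated and in 40.0% and 33.2% of innate-type T cells. Among the 36 pairs of receptors in NK-gated cells, the phi coefficient of detection ran from -0.12 to 0.25 in library 1 (142 cells) and from -0.08 to 0.12 in library 2 (934 cells). The highest in library 1 was Klrc1 with Cd226. Thinned cells share 1 depth, but coefficients this small in sparse counts describe detection only.

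NK-gated cells with and without a Klrc1 UMI were compared at the thinned depth. They numbered 61 and 81 in library 1, and 333 and 601 in library 2. Cd226 stood at 90.2 CPM in cells with Klrc1 and 34.0 CPM in cells without in library 1, and at 52.6 and 30.8 CPM in library 2, a log2 difference of 1.41 (0.30 to 2.60) and 0.77 (0.28 to 1.26). Klra4, an Ly49 receptor gene, showed the opposite order, with 61.5 CPM in cells with Klrc1 and 636 CPM in cells without in library 1, and 135 and 312 CPM in library 2. Its log2 difference was -3.37 (-4.23 to -2.61) and -1.21 (-1.45 to -0.97). Klra8 differed by -1.08 and -0.79, Klra7 by -0.65 and -0.59 and Klra9 by -0.37 (-0.98 to 0.22) and -0.34 (-0.54 to -0.14). The 4 Klra genes shown are part of the NK gate list, so a cell low in them needed more of the other gate genes to pass. For Klrk1 and Klrb1c the intervals of the difference hold 0 in both libraries. Cd160 differed by 0.29 (-0.59 to 1.17) and 0.91 (0.51 to 1.30), Ncr1 by 0.11 and 0.53 and Klrc2 by -0.15 and 0.45. Klrd1 differed by 0.03 and -0.13 and Klre1 by 0.22 and -0.22. Innate-type T cells of library 2, split the same way, differed by -0.14 (-0.54 to 0.24) in Cd226. There Klra4 differed by 0.42 (-0.21 to 1.03), Klra8 by 0.66 (0.13 to 1.17), Klra7 by -0.42 and Klra9 by -0.55.

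**Figure D3:**
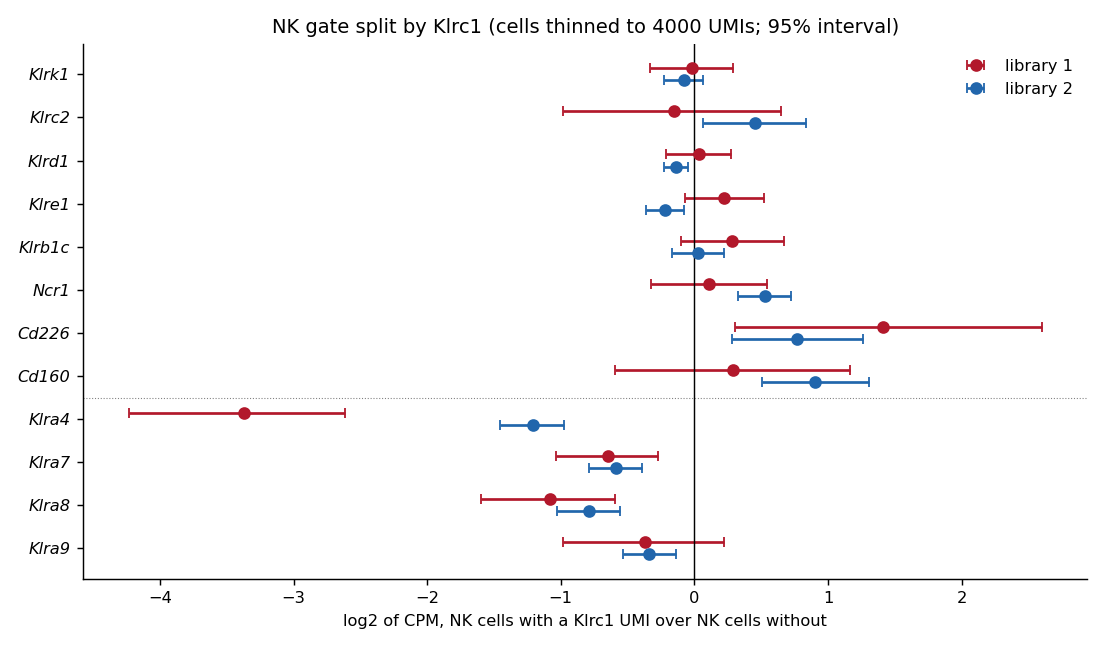
Log2 difference in CPM between NK-gated cells with a Klrc1 UMI and those without, for the other 8 receptors (above the dotted line) and 4 Klra genes (below it), in library 1 (red) and library 2 (blue). Bars are exact 95% intervals that cover counting error only; Klra4 lies at -3.37 and -1.21 and Cd226 at 1.41 and 0.77.

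Cells of the NK gate with and without a UMI of Eomes, a T-box factor of conventional NK cells and a gate gene, differed in Klrc1 and Cd226 as well. Klrc1 stood at 159 CPM in Eomes-positive and 380 CPM in Eomes-negative cells of library 1, and at 128 and 170 CPM in library 2, a log2 difference of -1.25 (-1.53 to -0.98) and -0.41 (-0.54 to -0.28). Cd226 stood at 33.4 and 76.8 CPM in library 1 and at 27.2 and 58.6 CPM in library 2, a log2 difference of -1.20 and -1.11. Klrk1 differed by -0.07 and -0.03, and its intervals hold 0 in both. The Eomes-positive cells had median depths of 11665 and 17166 UMIs and the Eomes-negative 10537 and 13722, and the part of depth in this split was not tested. The gate could also hold type 1 innate lymphoid cells. Of their 6 listed markers, 4 had at least 100 UMIs in the gate over both libraries. Itga1, among these 4, stood at 107 and 116 CPM. Cd200r1 at 3.42 and 0.929 CPM and Il7r at 14.2 and 1.24 CPM were not among them. The values given here thus do not stand for the whole list. Among the ranked types and myeloid cells, 1 of the 6 genes was highest in the NK gate in each library, and it was Itga1 in both. Of 5 mast cell and basophil markers, Kit stood at 24.9 and 9.73 CPM and the protease gene Cpa3 at 0 and 2.04 CPM. Mcpt8 stood at 0.489 and 0.867 CPM, Gata2 at 0 and 0.186 CPM and Ms4a2 at 0 and 0.372 CPM. The 33 Cpa3 UMIs of library 2 lay in 1 cell, 0.107% of the gate. Cycling NK-gated cells had less Ncr1 than the rest, 203 and 317 CPM in library 1 and 188 and 264 CPM in library 2. This was not particular to Ncr1: every receptor had a lower value in the cycling cells, save Klre1 in library 2. The log2 difference, cycling over the rest, was -0.64 and -0.49 for Ncr1, -0.63 and -0.22 for Klrc1 and -0.22 and 0.07 for Klre1. For Klrc2 its intervals hold 0 in both libraries.

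Between the libraries, none of the 9 receptors differed by 2-fold in NK-gated cells, where 5.49% of all 7928 genes with a ratio did, and none in innate-type T cells, where 5.21% of 7451 did. A ratio needed at least 100 UMIs of the gene over both libraries. In NK-gated cells 8 of the 9 were higher in library 1, with a median log2 ratio, library 1 over library 2, of 0.40, beside 0.12 over all genes. The ratios of these 8 ran from 0.25 (0.16 to 0.33) for Klre1 to 0.65 (0.42 to 0.89) for Klrc2. The interval of Cd226, at 0.33 (-0.0006 to 0.66), holds 0. Klrd1 alone was lower in library 1, by -0.32 (-0.39 to -0.25), and it was lower there in innate-type T cells too, by -0.49 (-0.60 to -0.39). Most genes with a ratio in NK-gated cells were also higher in library 1, as their median lies above 0. Their exact share was not counted. Cycling cells made up 18.3% of the NK gate in library 1 and 33.6% in library 2, and the part of cell state in these ratios was not tested. Among other lists described below, the median there was 0.53 for NK complex lectins and 0.65 for paired and costimulatory receptors. It was 0.32 for signalling genes, 1.00 for transcription factors, 0.19 for effector genes and -0.09 for adaptors. In innate-type T cells the median over the 9 was 0.14, beside 0.09 over all genes, and Ncr1 had the ratio farthest from 0, -0.73 (-1.08 to -0.40). Without cycling cells Ncr1 lay past 2-fold at -1.47, and with cells typed by clustering it was -0.09.

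**Figure D4:**
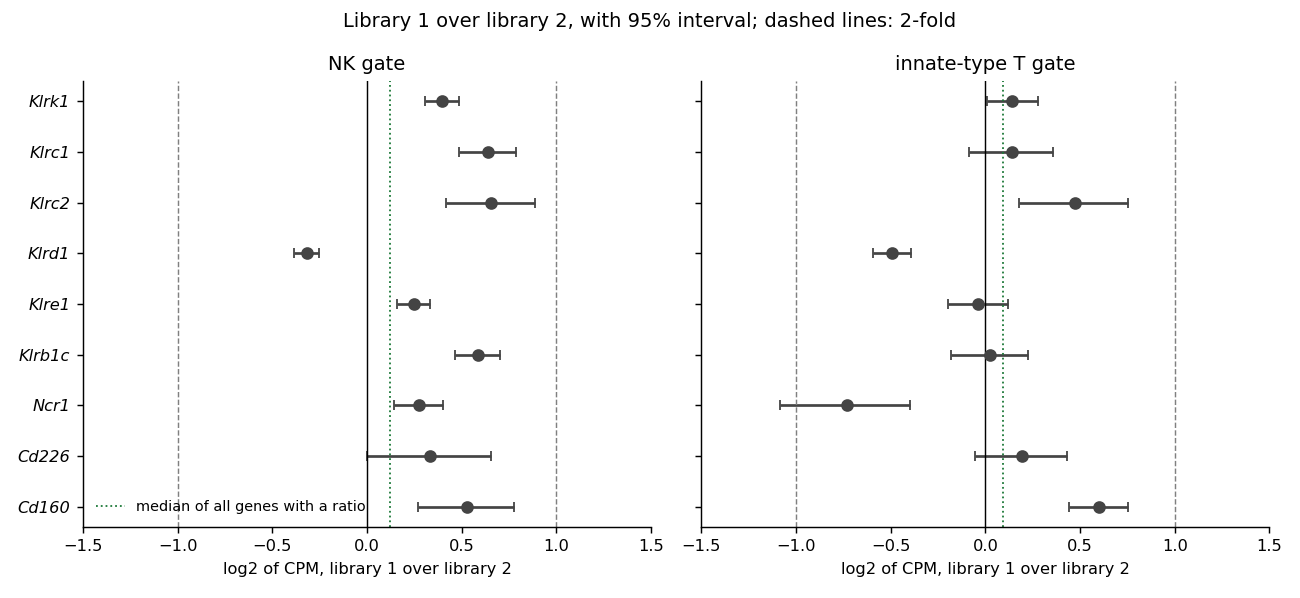
Log2 ratio of CPM, library 1 over library 2, for each receptor in NK-gated cells (left) and innate-type T cells (right), with exact 95% intervals. Dashed lines mark 2-fold and the dotted line the median of all genes with a ratio (0.12 and 0.09); no receptor lies past a dashed line, and Klrd1 lies below 0 on both sides.

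In 4 other T cell types most receptors with a ratio were higher in library 2. In non-naive CD8 T cells 1 of the 7 receptors with enough UMIs, Klrc1 at -1.13 (-1.51 to -0.77), was at least 2-fold higher in library 2, where 7.77% of all genes with a ratio were. In T cells with type 17 genes it was 3 of 5 (Klrk1, Klrd1 and Cd160), beside 3.34% of genes. In the naive-list CD8 gate it was 5 of 7 and in other T 8 of 8, beside 18.3% of genes in each. The largest of these log2 ratios was -3.72 (-4.23 to -3.23) for Klrc1 in other T cells, 7.96 CPM in library 1 and 105 CPM in library 2. The makeup of these cells differed too: the naive list stood at 2086 and 289 CPM in other T cells, and 0.634% and 23.1% of them were cycling. In non-naive CD8 T cells the naive list stood at 287 and 91.3 CPM, and 9.09% and 41.8% were cycling. Their median depths were 6295 and 9066.5 UMIs. In the naive-list CD8 gate Klrk1 stood at 13.4 and 148 CPM in cells outside the cell cycle, against 13.9 and 103 CPM in all its cells. The part of cell state and depth in these ratios was not tested.

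Myeloid cells, which are not expected to carry most of these receptors, gave the background for them. There 7 of the 9 stood at 2.57 CPM or less in both libraries, at median depths of 14579.5 and 14079.5 UMIs, against 11171 and 15967.5 UMIs in NK-gated cells. Klrk1 was the exception, at 54.3 CPM (49.1 to 59.8) and 38.0 CPM (36.1 to 39.9), with a UMI in 37.3% (32.9 to 41.9%) and 26.0% (24.4 to 27.7%) of myeloid cells. After thinning the shares were 16.6% and 11.8%. Klrd1 followed at 9.37 and 29.8 CPM. B cells of library 1 had 2.35 CPM of Klrk1 and a UMI in 0.461% of 434 thinned cells, at a median depth of 4976.5 UMIs, and library 2 held only 3 B cells.

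In myeloid cells there were 5.79 and 1.28 Klrk1 UMIs for each Klrd1 UMI, against 0.594 and 0.361 in NK-gated cells, so the receptors' counts did not keep the ratio of the NK-gated cells of the same library. There were 411 Klrk1 UMIs and 2 Ncr1 UMIs in myeloid cells of library 1, and 1584 and 25 in library 2. Within the myeloid gate, cells with fewer than 10 UMIs of the C1q genes had more Klrk1 than those with at least 10, with 106 CPM against 41.4 CPM in library 1 and 94.7 CPM against 21.3 CPM in library 2. Klrd1 stood at 36.3 CPM against 2.64 CPM in library 1 and at 99.2 CPM against 9.37 CPM in library 2. The NK gate list itself stood at 14.1 and 42.1 CPM in the myeloid gate, which by its rule admits fewer than 10 UMIs of that list, and the part of RNA from other cells in the Klrk1 counts was not tested. As background, NKG2D has been described on activated mouse macrophages.

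The other genes of these pathways were taken from fixed lists. Among the adaptors, Hcst (DAP10) stood at 390 and 284 CPM in NK-gated and at 630.1 and 560 CPM in non-naive CD8 T cells, Tyrobp (DAP12) at 1831 and 2229 CPM against 19.4 and 41.8 CPM, and Fcer1g (FcR gamma) at 2121 and 2593 CPM against 34.6 and 84.2 CPM. Cd247 (CD3 zeta) ran the other way, with 40.1 and 37.2 CPM in NK-gated and 91.4 and 101 CPM in non-naive CD8 T cells. Fcer1g and Tyrobp define the innate-type T gate and say nothing new about it. Of the 4 adaptors, none was past 2-fold between the libraries in NK-gated cells, beside 5.49% of all genes.

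Of 17 signalling genes downstream of these receptors, 16 had a ratio in NK-gated cells and 1 was past 2-fold, near the 5.49% of all genes past it: Syk, a kinase recruited by DAP12 and FcR gamma, at 23.9 and 7.99 CPM in libraries 1 and 2. The adaptor genes Lat and Lat2 stood apart between the cell types, Lat at 24.4 and 23.2 CPM in NK-gated and 265 and 333 CPM in non-naive CD8 T cells, and Lat2 at 144 and 200 CPM against 12.5 and 26.9 CPM. Of 10 transcription factors of NK cells, 8 had a ratio and 4 were past 2-fold, all higher in library 1, beside 4.14% of all genes. Of 12 effector genes, 4 were past 2-fold higher in library 1 and 1 was past it higher in library 2, beside 1.35% of all genes in that direction. Ccl5, a chemokine, was among them at 1131 and 172 CPM, and the granzyme gene Gzmc stood at 6148 and 13911 CPM.

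Ligand genes of these receptors were counted across the same leukocyte types. Of 9 listed NKG2D ligand genes 5 were found in the matrix. Raet1d and Raet1e, 2 RAE-1 genes, stood highest in myeloid cells, at 1.58 and 6.67 CPM and at 0.66 and 4.05 CPM, and H60c had no UMI in any type shown here. Ulbp1 (MULT1) stood at 18.6 and 11.3 CPM in NK-gated and 11.1 and 10.0 CPM in myeloid cells. In non-naive CD8 T cells Ulbp1 stood at 5.54 and 33.4 CPM, the latter its highest level in library 2. H2-T23, the Qa-1 gene, was found in every type, at 349 and 199 CPM in NK-gated and 461 and 308 CPM in myeloid cells. Pvr (CD155) stood at 9.28 and 5.14 CPM in NK-gated and 35.0 and 28.9 CPM in myeloid cells, and Nectin2 (CD112) at 7.79 and 5.97 CPM in myeloid cells. Tnfrsf14 (HVEM) stood at 0.489 and 0.310 CPM in NK-gated and 1.58 and 1.34 CPM in myeloid cells. Tumour cells were depleted by the CD45 selection, so their ligands were not measured here.

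Of 7 other lectin genes of the NK gene complex, Klri2 and Klrg1 are gate genes. Of the remaining 5, 4 in library 1 and 2 in library 2 were highest in the NK gate. Klrb1b, an inhibitory receptor gene beside Klrb1c, stood at 237 and 164 CPM in NK-gated and 36.4 and 52.0 CPM in innate-type T cells, and Klrb1f at 124 and 67.2 CPM against 47.6 and 37.0 CPM. Klrb1a stood at 82.1 and 69.8 CPM in NK-gated and 78.7 and 75.6 CPM in innate-type T cells, intervals that overlap. Among paired and costimulatory receptors, Tigit, which competes with DNAM-1 for CD155, stood at 7.82 and 4.27 CPM in NK-gated cells, and Cd96 at 76.2 and 59.7 CPM. Cd7 resembled Cd160 in standing higher in innate-type T cells, 104 and 65.3 CPM in NK-gated against 526 and 475 CPM in innate-type T cells.

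The genes whose log2(CPM + 1) over 9 gated types was most like that of a receptor were sought among 6686 genes, by the lower of the Pearson correlations in the 2 libraries. Klrb1c was most like Klra9 (r = 0.981 and 0.989), which is a gate gene. Ncr1 was most like Gzmc (0.951 and 0.98), a granzyme gene. Klre1 (0.956 and 0.970) and Cd160 (0.968 and 0.922) were most like Xcl1, a chemokine gene. Klrc1 was most like Padi2 (0.936 and 0.932), followed by Fasl, and Klrc2 like Il12rb2 (0.954 and 0.928), a chain of the interleukin 12 receptor. Klrk1 was most like Itga1 (0.898 and 0.918), Klrd1 like Qrfp (0.936 and 0.941) and Cd226 like Pglyrp2 (0.952 and 0.948). The points of each correlation are types of the same library with unlike depths and cell numbers, and with 9 points many genes reach such values.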

How the data were processed

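Beads selected the CD45-positive cells and a droplet kit made the 3′ libraries, per the labels' protocols. Cell Ranger 3.1.0 wrote the counts, per the file headers, on mm10, per the submitters' processing notes. The values are raw UMI counts as deposited, whole and not normalized, with both libraries in 1 matrix. The annotation, cell calling and strand of counting were not given in the sources used here.

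Cells needed at least 200 genes, 500 UMIs and at most 10% mitochondrial UMIs, which left out 79 and 96 barcodes. Scrublet in Scanpy 1.11.5 scored doublets in each library (expected rate 0.06). The threshold it chose marked 0 cells and so did not work, and the 5% with the highest scores, 262 and 355, were left out. Types are exclusive gates on summed raw UMIs of marker lists. T gates needed at least 4 CD3 UMIs, and T and NK gates fewer than 30 UMIs of a myeloid list, 6 of a B list and 20 of a stromal list. All limits were chosen on the gate genes alone, with their distributions in view. CPM have exact Poisson intervals, shares exact Clopper-Pearson intervals and log2 ratios exact conditional binomial intervals. A zero was set to 3 counts over the summed type. Thinning drew 4000 UMIs per cell without replacement, and no gated cell was shallower. The ratio script was tested on simulated data. Clusters for the alternative came from leidenalg 0.10.2. Loci and transcripts came from GENCODE vM21.

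The members and lists were chosen with earlier results of these data known. Named genes are the members, genes of the lists and, per member, the 3 genes most like it, among genes of at least 20 CPM in 1 type of each library. The Klra genes set beside Klrc1 are gate genes chosen after values were seen.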

Additional observations from a re-analysis of the deposited data

How the results depend on the processing

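The counts of receptors highest in the NK gate (7 and 5) and past 2-fold between libraries (0 and 0) were recomputed under 9 alternatives, of which 1 was chosen after seeing the data (a limit of 60 myeloid UMIs). The first count ran from 6 to 7 in library 1 and from 5 to 6 in library 2, and the count past 2-fold in NK-gated cells was 0 under all 9. In innate-type T cells it was 1, Ncr1, with cells thinned to 4000 UMIs (-1.02) and without cycling cells (-1.47); the cause was not tested. Klrc2 was highest in innate-type T cells in library 1 under 3 of the 9. Klrc1 was highest in the NK gate in library 2 under 1. Of the levels of single receptors, 224 stayed within the main counting interval and 100 did not, and of their ratios 138 and 24. Klrd1 was lower in library 1 under every alternative run. Clustering left 6 types to rank, cells of at least 10000 UMIs 4 and leaving out cycling cells 5. No paired analysis was possible because each group has 1 library and the library numbers are tied to no group. Depth limits Ncr1 in CD8, activated CD4 and regulatory T cells, where 0 to 2 UMIs set the values.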
